A study of Mus musculus with 6 samples.

Results

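Chemokines are small secreted proteins that steer migrating cells, and chemokine receptors are the receptors that read them. The genes described here are the protein-coding rows of the deposited table whose symbol is Ccl, Cxcl, Ccr or Cxcr followed by a number and at most 1 letter. There were 49 of them among 30462 genes, 33 ligands and 16 receptors. The row of Cxcl11 was left out because the table gives it as a polymorphic pseudogene. The members were sorted by textbook use into homeostatic genes, which are made without inflammation (10 ligands, 5 receptors), inflammatory genes (17 ligands, 7 receptors) and genes of mixed or other use (6 ligands, 4 receptors).

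The study sequenced cochlear RNA of mice at postnatal day 7; the cochlea is the part of the ear that turns sound into nerve signals. Of its 6 libraries, 3 are labelled NEU4 KO (replicates 2, 4 and 5) and 3 WT (replicates 3, 4 and 5), and values below follow that order of replicates. Neu4 encodes a sialidase, an enzyme that takes sialic acid off glycoproteins and glycolipids. The labels give no strain, sex, kind of allele or number of animals per library, so the p-values measure only the spread between these samples, which may be technical.

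Chemokines fall into families by the spacing of their first cysteines, CC (Ccl) and CXC (Cxcl), and their receptors are G-protein-coupled receptors of leukocytes and of some tissue cells. Homeostatic chemokines such as Cxcl12 place blood stem cells, leukocytes and migrating cells in marrow, lymphoid organs and developing tissue. Inflammatory chemokines draw neutrophils, monocytes and eosinophils to injured tissue. The inner ear holds resident macrophages, which carry several of the receptors.

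The implied library totals were 15170973 (knockout 5) to 17192293 (wild type 4) fragments. Neu4 had 4, 8 and 6 fragments across the knockouts and the same numbers across the wild types (exact two-sided permutation p = 0.8, the smallest possible for 3 against 3 being 0.1), so its RNA did not check the labels, and "knockout" below means the libraries so labelled. The 9 cochlea markers summed to 224 to 252 FPKM in knockout and 201 to 209 in wild type, with 8 of 8 tested genes higher, 0 called by limma and 1 by voom. The sexes, read from Xist and Ddx3y, were unequal, with 1 male and 2 female knockouts and 2 male and 1 female wild types. In these bulk samples fewer cells of a type and less RNA per cell cannot be told apart. Over all 14072 genes tested 47 changed, 18 higher and 29 lower in knockout (limma), and 11 higher and 33 lower with median-ratio scaling.

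Of the 49 members, 14 had an FPKM (fragments per kilobase of exon, scaled to library size) of at least 1 in at least 3 libraries and were tested. Those 14 were 11 ligands and 3 receptors. A further 23 reached 0.2 FPKM in at least 1 library, and the remaining 12 stayed below 0.2 FPKM in every library. Cxcl12 stood apart in level, taking 38.5% to 42.1% of the summed FPKM of all members in each library. The summed level of the 49 genes was 104 to 116 FPKM in knockout and 95.3 to 99.9 in wild type. Homeostatic ligands summed to 57.6 to 63.3 FPKM in knockout and 52.3 to 54.8 in wild type, and inflammatory ligands to 23.4 to 26.0 FPKM in knockout and 20.8 to 22.3 in wild type. Inflammatory receptors summed to 12.3 to 15.1 FPKM in knockout and 10.6 to 11.1 in wild type. These 3 sums were higher in every knockout, and that of the mixed ligands was lower, at 2.08 to 3.30 FPKM in knockout and 3.84 to 4.82 in wild type. The sums of the homeostatic receptors, 7.59 to 9.66 FPKM in knockout and 6.96 to 7.61 in wild type, and of the mixed receptors, 0.212 to 0.555 FPKM in knockout and 0.192 to 0.509 in wild type, overlapped. Each of the 3 higher sums overlapped once its most abundant gene was left out. The homeostatic ligands other than Cxcl12 summed to 13.6 to 16.5 FPKM in knockout and 13.9 to 16.7 in wild type, the inflammatory ligands other than Ccl9 to 11.1 to 13.3 FPKM in knockout and 11.7 to 12.5 in wild type, and the inflammatory receptors other than Ccr1 to 2.18 to 3.47 FPKM in knockout and 1.53 to 2.34 in wild type. The mixed ligands other than Cxcl16 stayed lower, at 0.155 to 0.388 FPKM in knockout and 0.915 to 1.92 in wild type. Leaving out these genes was chosen after seeing the data.

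None of the 14 passed the test between the genotypes. With limma on log2(FPKM + 1), 0 of the 14 had a Benjamini-Hochberg adjusted p under 0.05, where 0.334% of all genes tested did, and the smallest was 0.128 (Ccl9). At an unadjusted p under 0.05 there were 7 of the 14 (5 higher, 2 lower), against 17.6% of all genes (10.6% higher, 6.99% lower). The 2 genotypes were fully apart for 6 of the 14, 5 higher and 1 lower in knockout, against 24.8% of all genes tested (15.2% higher, 9.54% lower). With voom, a limma method for counts, on the fragments recovered from the FPKM values, 1 of 38 members was called (Cxcl15, lower), against 1.82% of 21282 genes (0.991% higher, 0.832% lower). An unadjusted voom p under 0.05 was found for 12 of 38 (7 higher, 5 lower), against 15.7% (9.62% higher, 6.13% lower). Of the 38, 11 were fully apart (7 higher, 4 lower), against 21.0% (12.7% higher, 8.24% lower). The median log2 fold change of the 14 was 0.03, and that of all genes tested 0.02.

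**Figure D1:**
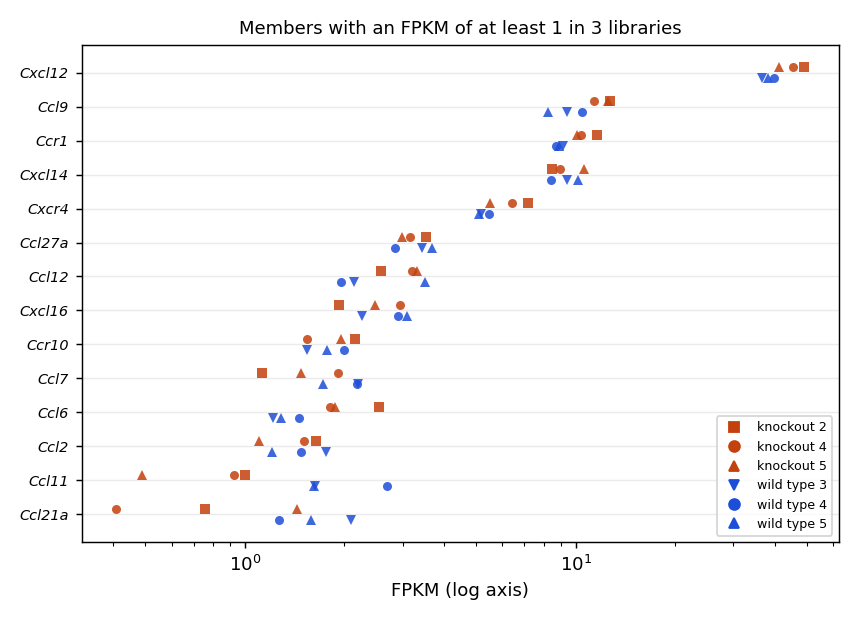
FPKM (log axis) of the 14 members that passed the filter, ordered by mean level, with 1 point per library (knockout in orange above, wild type in blue below). Cxcl12 lies at 36.6 to 49.0 FPKM, far above the next gene, and the points of the genotypes do not overlap for Cxcl12, Ccl9, Ccr1, Cxcr4, Ccl6 and Ccl11.

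Among the homeostatic ligands Cxcl12 was the most abundant member. It encodes the chemokine that holds blood stem cells in their niche and guides migrating cells, and acts through Cxcr4. Cxcl12 (ENSMUSG00000061353, chromosome 6, 117168535 to 117181367) had 49.0, 45.4 and 41.0 FPKM across the knockouts against 36.6, 39.7 and 38.1 across the wild types. The lowest knockout library lay above the highest wild type one. The group means were 45.2 ± 4.01 against 38.1 ± 1.52 FPKM (SD, n = 3), which did not pass the test (log2 fold change 0.24, SE 0.0683, adjusted p = 0.163, limma; voom log2 fold change 0.24, adjusted p = 0.0625). Without knockout 5 the voom adjusted p was 0.00881, and without any other single library it was 0.109 to 0.218.

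Cxcr4, its signalling receptor (ENSMUSG00000045382, chromosome 1, 128588199 to 128592293), had 7.17, 6.40 and 5.51 FPKM across the knockouts against 5.16, 5.47 and 5.09 across the wild types. Knockout 5 lay just above wild type 4, so the groups were apart by a narrow margin. The difference did not pass the test (log2 fold change 0.23, SE 0.0879, adjusted p = 0.240, limma). Ackr3, the scavenging receptor that binds Cxcl12 without coupling to G proteins, had 28.0, 27.8 and 24.6 FPKM across the knockouts against 22.6, 24.0 and 25.7 across the wild types, and wild type 5 lay above knockout 5 (log2 fold change 0.15, SE 0.0676, adjusted p = 0.309, limma). The endothelial marker list, a cell type that makes Cxcl12, had a summed level of 116 to 127 FPKM in knockout and 129.6 to 141 in wild type, lower in knockout, with 2 of its 7 tested genes higher and 5 lower and 0 called. The mesenchyme list, another known source, had 4713 to 6066 FPKM in knockout and 5483 to 6422 in wild type, with 3 of 7 higher, 4 lower, 0 called by limma and 2 by voom. Their part in the Cxcl12 values was not tested.

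The promoters of Cxcl12 and Cxcr4 are shown because ligand and receptor FPKM were both higher in every knockout, though neither passed the test. Shared regulation was not tested. The promoters are given in RefSeq sequence (GRCm38.p6), 250 bases before the start and 30 after it. Capitals mark the GC box GGGCGG on either strand and the TATA box TATAAA.
Cxcl12 chr6:117168285-117168564, plus strand: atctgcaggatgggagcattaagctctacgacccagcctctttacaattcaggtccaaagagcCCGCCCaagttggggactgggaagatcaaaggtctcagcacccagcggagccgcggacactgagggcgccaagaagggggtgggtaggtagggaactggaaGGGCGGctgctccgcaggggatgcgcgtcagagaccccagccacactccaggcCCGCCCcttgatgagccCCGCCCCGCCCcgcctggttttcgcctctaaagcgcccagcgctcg
Cxcr4 chr1:128592270-128592549, minus strand: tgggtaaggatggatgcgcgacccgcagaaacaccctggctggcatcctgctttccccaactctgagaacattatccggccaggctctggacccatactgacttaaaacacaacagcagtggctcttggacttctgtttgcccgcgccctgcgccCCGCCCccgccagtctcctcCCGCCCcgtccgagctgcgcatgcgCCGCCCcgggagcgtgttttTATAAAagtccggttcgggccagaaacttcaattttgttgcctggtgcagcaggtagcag
RefSeq promoters were matched for 36 of the 49 members, and motifs were searched on both strands over 300 bases. The GC box stood in 8 of the 36 members and in 35.7% of all 32851 promoters. The TATA box stood in 10 of the 36 members, among them Cxcr4, Ccl9 and Cxcl15, and in 13.6% of all promoters.

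Cxcl14, a chemokine of epithelia and mesenchyme, had group means of 9.36 FPKM in knockout and 9.33 in wild type. It had 8.51, 8.99 and 10.6 FPKM across the knockouts against 9.42, 8.44 and 10.1 across the wild types, with the groups fully interleaved (log2 fold change 0.00, SE 0.0919, adjusted p = 0.993, limma). Its log2 fold change turned to -0.02 with median-ratio scaling. Its level lay beside those of Ccl9 and Ccr1, and the libraries of these 3 genes overlapped in level, so their order is not fixed beyond their spread.

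Ccl27a, a skin-homing chemokine that acts through Ccr10, had 3.53, 3.16 and 2.99 FPKM across the knockouts against 3.44, 2.84 and 3.68 across the wild types. The groups overlapped (log2 fold change -0.03, SE 0.0951, adjusted p = 0.904, limma). It overlaps Il11ra1 on the opposite strand and has a near copy, Ccl27b, which was listed above 0 only in wild type 4 (0.417 FPKM), so how reads were divided is uncertain. Ccr10, its receptor, had 2.16, 1.54 and 1.95 FPKM across the knockouts against 1.54, 1.99 and 1.78 across the wild types, again overlapping (log2 fold change 0.05, SE 0.111, adjusted p = 0.833, limma). Ccl28, the other Ccr10 ligand, had 23, 16 and 34 fragments across the knockouts against 7, 20 and 25 across the wild types, with no separation of the groups.

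Ccl21a, the chemokine of lymphatic vessels that draws Ccr7-bearing cells, had the largest log2 fold change in size of the 4 homeostatic ligands tested, on the log2(FPKM + 1) scale. Its values were 0.759, 0.407 and 1.44 FPKM across the knockouts against 2.09, 1.27 and 1.58 across the wild types. Knockout 5 lay above wild type 4, so that the groups overlapped (log2 fold change -0.53, SE 0.213, adjusted p = 0.266, limma). Over all libraries of a group 36 fragments in knockout stood against 71 in wild type. The rate ratio, knockout over wild type, was 0.517 with a 95% interval of 0.336 to 0.782 (exact, counting error only). Ccl21b, a near-identical copy, was listed above 0 only in knockout 5 (0.0759 FPKM), and the division of reads between copies is uncertain. The lymphatic vessel markers had 9.29 to 11.6 FPKM in knockout and 10.4 to 10.7 in wild type, overlapping, with 1 of the 2 tested genes higher and 1 lower, and none of the 4 listed at 0.

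The other homeostatic ligands were low. Ccl25, a thymus and gut chemokine, had 116, 90 and 93 fragments across the knockouts against 66, 92 and 82 across the wild types (rate ratio 1.27 with a 95% interval of 1.07 to 1.51; voom adjusted p = 0.381), and it overlaps Elavl1 on the opposite strand. Ccl19, the other Ccr7 ligand, had 4, 2 and 2 fragments across the knockouts against 0, 0 and 1 across the wild types. Its knockout values were above the wild type ones in every library on 8 against 1 fragments, a ratio of 8.15 with a 95% interval of 1.09 to 362. Cxcl13, the B cell follicle chemokine, had 0 fragments in all 3 knockouts and 5 in wild type (2 in wild type 3, 3 in wild type 5). Were the knockouts set at a floor of 3 fragments over the group, Cxcl13 would be 1.64-fold lower, which is not a lower bound. The exact 95% interval of the Cxcl13 rate ratio reached up to 1.11 and so included 1. Of the homeostatic receptors, Ccr7 had 14 fragments in each group.

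Among the inflammatory ligands, Ccl9 and Ccl6 were higher in every knockout library. They are CC chemokines of the myeloid lineage, found in rodents, that act through Ccr1. Ccl9 (ENSMUSG00000019122, chromosome 11, 83572919 to 83578636) had 12.7, 11.4 and 12.5 FPKM across the knockouts against 9.41, 10.4 and 8.24 across the wild types, or 12.2 ± 0.709 against 9.36 ± 1.096 FPKM (SD, n = 3). All 3 knockouts lay above all 3 wild types. The adjusted p did not pass (log2 fold change 0.35, SE 0.0848, adjusted p = 0.128, limma; voom log2 fold change 0.38, adjusted p = 0.0563), and without any single library the voom adjusted p was 0.0660 to 0.182.

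Ccl6 (ENSMUSG00000018927, chromosome 11, 83587882 to 83593087), the neighbouring member on the same strand, had 2.54, 1.81 and 1.87 FPKM across the knockouts against 1.21, 1.46 and 1.29 across the wild types. Knockout 2 was the highest library and wild type 3 the lowest (log2 fold change 0.40, SE 0.113, adjusted p = 0.161, limma). Ccr1, a receptor of macrophages, neutrophils and osteoclast precursors (ENSMUSG00000025804, chromosome 9, 123962124 to 123968692), had 11.6, 10.4 and 10.1 FPKM across the knockouts against 9.13, 8.75 and 8.90 across the wild types. The wild types lay close together, and all 3 knockouts above them (log2 fold change 0.24, SE 0.0598, adjusted p = 0.136, limma).

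The 10 macrophage markers summed to 323 to 339 FPKM in knockout and 324 to 348 in wild type, overlapping, with 5 higher, 5 lower and 0 called. Mertk and Mrc1, receptors of resident macrophages, were higher in every knockout (adjusted p = 0.128 and 0.178, limma), and the other 8 overlapped. Csf1r, the growth factor receptor of macrophages and osteoclast precursors, had 60.8, 61.0 and 56.5 FPKM across the knockouts against 60.8, 59.7 and 63.1 across the wild types. The neutrophil and marrow list differed more, but its sums overlapped, with knockout 5 below wild type 4. It had 92.3 to 161 FPKM in knockout and 36.0 to 97.4 in wild type, with 6 of the 7 tested genes higher and 0 called by limma (3 of 10 called by voom), and none at 0. S100a9, its most abundant gene, had 64.5, 53.9 and 35.1 FPKM across the knockouts against 18.1, 28.2 and 11.5 across the wild types (adjusted p = 0.124, limma). Its part in the Ccl9, Ccl6 and Ccr1 values was not tested.

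The promoters of Ccl9 and Ccl6 are printed because these neighbours were the inflammatory ligands higher in every knockout, though neither passed the test. Shared regulation was not tested. The promoters are given in RefSeq sequence (GRCm38.p6) of the same 280-base window. Capitals mark every stretch of 10 or more bases that the 2 windows share.
Ccl9 chr11:83578607-83578886, minus strand: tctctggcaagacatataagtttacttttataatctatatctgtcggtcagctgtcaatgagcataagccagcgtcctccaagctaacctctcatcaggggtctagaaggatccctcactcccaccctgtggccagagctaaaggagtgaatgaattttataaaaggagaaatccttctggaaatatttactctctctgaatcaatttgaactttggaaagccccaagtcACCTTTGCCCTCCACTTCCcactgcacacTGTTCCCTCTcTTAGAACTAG
Ccl6 chr11:83593058-83593337, minus strand: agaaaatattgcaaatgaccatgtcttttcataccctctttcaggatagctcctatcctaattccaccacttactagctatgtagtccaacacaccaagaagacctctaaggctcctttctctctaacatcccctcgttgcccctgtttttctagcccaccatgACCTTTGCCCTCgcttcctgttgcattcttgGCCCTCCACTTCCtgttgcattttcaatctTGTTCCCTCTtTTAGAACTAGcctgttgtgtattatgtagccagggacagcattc
The shared stretches were 4. The longest, GCCCTCCACTTCC, starts 14 bases before the start in Ccl9 and 55 before it in Ccl6, and the next, ACCTTTGCCCTC, 20 and 86 bases before it. In Ccl9 both overlap in 1 run, and in Ccl6 they lie apart. On either strand they stood in 6 and 4 of the 32851 promoters. TGTTCCCTCT stood in 47 promoters and TTAGAACTAG in 18. The 4 were taken from these 2 windows, so both hold them by choice, and no other of the 36 members with a promoter held any.

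Of the other CC ligands of chromosome 11, Ccl11 was the one whose groups did not overlap. In the cluster from 82035571 to 82116799, which holds Ccl2, Ccl7, Ccl11, Ccl12 and Ccl8 in that order, the gene in the middle was lower in knockout and its neighbours overlapped. Ccl11, the eosinophil attractant eotaxin (ENSMUSG00000020676, chromosome 11, 82057823 to 82062955), had 0.998, 0.928 and 0.487 FPKM across the knockouts against 1.62, 2.69 and 1.62 across the wild types. Every knockout lay below every wild type. Its group values were 0.805 ± 0.277 against 1.98 ± 0.616 FPKM (SD, n = 3), and it had the largest log2 fold change of the 14 in size (log2 fold change -0.71, SE 0.177, adjusted p = 0.131, limma). On 43 against 107 fragments the rate ratio was 0.410 with a 95% interval of 0.281 to 0.589. The mast cell list, whose cells lie in connective tissue, was lower too, with 11.1 to 19.7 FPKM in knockout and 34.8 to 41.1 in wild type, 5 of 5 tested genes lower and 1 (Mcpt4) called by limma, 4 of 7 called by voom, and Fcer1a at 0 in all wild types and knockout 2. The endothelial list above and the middle ear epithelium list below also summed lower in every knockout, and the mesenchyme list overlapped. The part of any of these lists in the Ccl11 values was not tested.

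Ccl2, the main monocyte attractant, had 1.63, 1.51 and 1.101 FPKM across the knockouts against 1.76, 1.48 and 1.21 across the wild types and no separation (log2 fold change -0.04, SE 0.127, adjusted p = 0.895, limma). Ccl7, which acts on the same receptor Ccr2, had 1.12, 1.92 and 1.48 FPKM across the knockouts against 2.19, 2.18 and 1.72 across the wild types. Knockout 4 lay above wild type 5 (log2 fold change -0.28, SE 0.135, adjusted p = 0.331, limma). Ccl12, a further Ccr2 ligand of the mouse, had 2.57, 3.19 and 3.31 FPKM across the knockouts against 2.14, 1.95 and 3.50 across the wild types, and wild type 5 was the highest library of all (log2 fold change 0.21, SE 0.166, adjusted p = 0.545, limma). Ccl8 rested on 11 against 5 fragments (rate ratio 2.24 with a 95% interval of 0.718 to 8.23).

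In the second cluster, 83525778 to 83664683, Ccl9 and Ccl6 lie between Ccl5 and Ccl3. Ccl5, a T cell and monocyte attractant, had 9, 1 and 2 fragments across the knockouts against 3, 2 and 5 across the wild types, and knockout 2 held most of the knockout fragments. Ccl3, a macrophage inflammatory protein that binds Ccr1, had 15, 7 and 7 fragments across the knockouts against 6, 7 and 11 across the wild types, with knockout 2 again highest. Ccl4 had 5 against 2 fragments. These 3 genes gave no separation of the groups. Ccl24, the eotaxin on chromosome 5, had 14, 19 and 17 fragments across the knockouts against 10, 10 and 14 across the wild types, and its groups overlapped only through wild type 5 and knockout 2 (rate ratio 1.499 with a 95% interval of 0.9502 to 2.39).

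Receptors of inflammatory ligands other than Ccr1 were below the filter. Ccr2, the monocyte receptor (ENSMUSG00000049103, chromosome 9, 124101950 to 124113557), had 107, 77 and 46 fragments across the knockouts against 31, 51 and 38 across the wild types. Knockout 2 was the highest, knockout 5 lay below wild type 4 in fragments but above it after scaling, at 0.449 against 0.439 FPKM, and the rate ratio was 1.95 with a 95% interval of 1.56 to 2.46. Its voom adjusted p was 0.145. Without knockout 5 the voom adjusted p was 0.0382, and without any other single library it was 0.219 to 0.361. Ccr3, the eosinophil receptor, had 65, 48 and 29 fragments across the knockouts against 30, 40 and 47 across the wild types, and Cxcr3, the receptor of interferon-induced chemokines, 16, 18 and 15 fragments across the knockouts against 11, 21 and 10 across the wild types. Both overlapped.

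Cxcr2, the main chemokine receptor of neutrophils (ENSMUSG00000026180, chromosome 1, 74153989 to 74161246), varied widely among the libraries. It had 32, 31 and 14 fragments across the knockouts against 13, 21 and 1 across the wild types. Wild type 4 lay above knockout 5, so the groups overlapped, and wild type 5 held a single fragment. The rate ratio was 2.24 with a 95% interval of 1.49 to 3.45 (voom log2 fold change 1.70, adjusted p = 0.262), and without wild type 5 the voom log2 fold change was 0.60. The neutrophil list ranked the libraries in nearly the same way, highest in knockouts 4 and 2 (161 and 160.5 FPKM) and lowest in wild type 5 (36.0 FPKM), as the plot of fragments beside marker sums shows. Its part in the Cxcr2 values was not tested.

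Over the receptors with at least 10 fragments in all, 12 of 12 had a voom log2 fold change above 0, where 56.3% of all genes did. They ran from 0.08 (Ccr10) to 1.70 (Cxcr2) with a median of 0.58, and 0 of the 12 were called. The 26 ligands of the same depth split evenly, 13 above and 13 below 0, with a median of 0.08, the median of all genes being 0.03. Ccr7 is among the 12 receptors with 14 fragments in each group. The receptors under 10 fragments were left out, and most of them leaned the other way. Ccr4 had 2 fragments in knockout against 4 in wild type, Ccr6 3 against 5, Ccr8 0 against 1 and Cxcr1 2 against 0. Most of the 12 receptors are known as leukocyte receptors and may share cells, which was not tested. The 12 are therefore not counted as independent of each other.

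**Figure D2:**
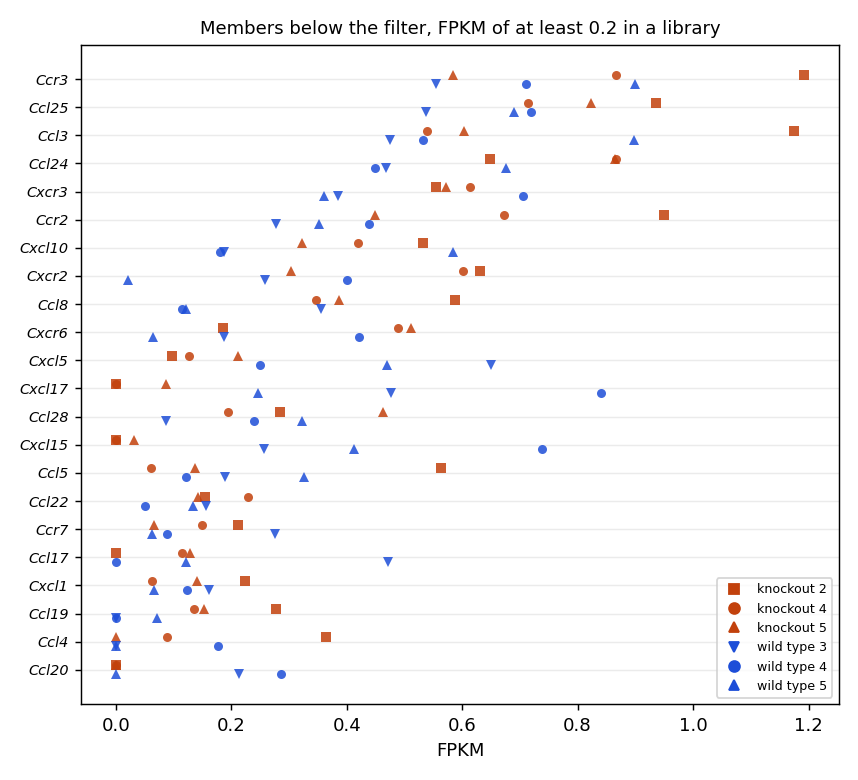
FPKM of 22 of the 23 members below the filter that reached 0.2 FPKM in a library (Ccl27b left out), 1 point per library, knockout in orange above and wild type in blue below. Ccr2 and Ccl19 lie higher and Cxcl5, Cxcl15 and Cxcl17 lower in every knockout than in every wild type.

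Among the low ligands, Cxcl15, Cxcl17 and Ccl20 had at most 1 fragment over the 3 knockouts, and Cxcl5 had 13 against 42. Cxcl15, known as lungkine, a chemokine of mucosal epithelia (ENSMUSG00000029375, chromosome 5, 90794534 to 90803067), had 0, 0 and 1 fragments across the knockouts against 9, 27 and 14 across the wild types. All wild types held more than any knockout. The rate ratio on 1 against 50 fragments was 0.0204 with a 95% interval of 0.000506 to 0.119. It was the 1 member called by voom (log2 fold change -4.42, SE 0.997, adjusted p = 0.0459), a call that held without wild type 3 (adjusted p = 0.0492) and was lost without any other single library (0.0856 to 0.196). It was below the filter of the limma test, and without a filter its adjusted p was 0.255 (limma).

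Cxcl17, a chemokine of airway and gut lining (ENSMUSG00000060188, chromosome 7, 25400053 to 25412886), had 0, 0 and 1 fragments across the knockouts against 6, 11 and 3 across the wild types. These groups were apart as well, on 1 against 20 fragments (rate ratio 0.0510 with a 95% interval of 0.00123 to 0.319; voom log2 fold change -3.14, adjusted p = 0.129). Ccl20, the mucosal ligand of Ccr6, had 0, 0 and 0 fragments across the knockouts against 5, 7 and 0 across the wild types. Wild type 5 was at 0 like the knockouts. Were the knockouts set at the same floor of 3 fragments over the group, Ccl20 would be 3.93-fold lower, which is not a lower bound. The exact 95% interval of the Ccl20 rate ratio reached up to 0.367, a smaller fall. The voom adjusted p was 0.364. Cxcl5, a neutrophil attractant made by epithelia and a ligand of Cxcr2, lies with Cxcl15 in a chromosome 5 cluster (90759360 to 90905938). It had 3, 4 and 6 fragments across the knockouts against 20, 8 and 14 across the wild types, all knockouts below all wild types (rate ratio 0.315 with a 95% interval of 0.155 to 0.599; voom log2 fold change -1.52, adjusted p = 0.231).

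Markers of the middle ear epithelium, a tissue next to the cochlea, summed lower in the same libraries. The 6 markers summed to 10.9 to 101 FPKM in knockout and 392 to 743 in wild type, with 2 of 2 tested genes lower, 0 called by limma and 1 of 6 (Bpifa1) by voom, and Muc16 listed at 0 in knockout 2. Bpifa1, the secreted protein that dominates the list, had 0.0777, 8.34 and 93.3 FPKM across the knockouts against 336, 608 and 402 across the wild types (adjusted p = 0.136, limma). Leaving out Bpifa1 and the neutrophil gene Ltf, the other 4 summed to 0.353 to 0.437 FPKM in knockout and 1.21 to 112 in wild type. Wild type 5 was the lowest wild type for these 4 markers, and wild type 3 for all 6. Among the ligands the lowest wild type was 5 for Cxcl17 and Ccl20, 3 for Cxcl15 and 4 for Cxcl5. The part of this tissue in the values of the 4 ligands was not tested.

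**Figure D3:**
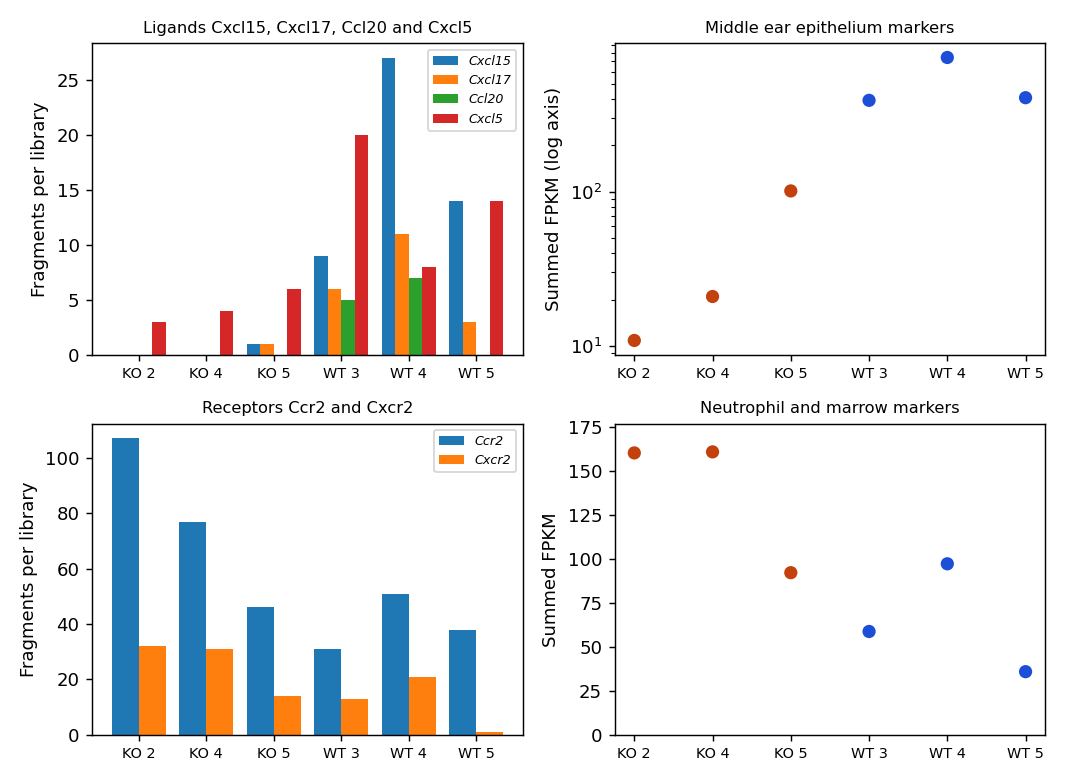
Left, fragments per library of the ligands Cxcl15, Cxcl17, Ccl20 and Cxcl5 (top) and of the receptors Ccr2 and Cxcr2 (bottom). Right, summed FPKM of the middle ear epithelium markers (top, log axis) and of the neutrophil and marrow markers (bottom), 1 point per library. Cxcl15 and Cxcl17 reach at most 1 fragment in knockout, where the epithelium markers lie below every wild type, and Cxcr2 has 1 fragment in wild type 5, which is the lowest for the neutrophil markers.

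The remaining members of the chromosome 5 cluster and the interferon-induced ligands were low and overlapped. Cxcl1, a neutrophil attractant, had 13 against 11 fragments, Cxcl2 5 against 8, and Cxcl3 1 against 6. Cxcl10, induced by interferon gamma, had 20, 16 and 11 fragments across the knockouts against 7, 7 and 21 across the wild types, and Cxcl9 17 against 9. Cxcl10 overlaps Art3 on the opposite strand.

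Of the mixed ligands and receptors, Cxcl16 was the one tested. Cxcl16, a membrane-bound chemokine of myeloid cells, had 1.93, 2.95 and 2.47 FPKM across the knockouts against 2.27, 2.91 and 3.09 across the wild types. The groups overlapped (log2 fold change -0.13, SE 0.134, adjusted p = 0.661, limma), and Zmynd15 overlaps it on the opposite strand. Its receptor Cxcr6 had 6, 16 and 15 fragments across the knockouts against 6, 14 and 2 across the wild types (rate ratio 1.71 with a 95% interval of 0.985 to 3.05). Ccl22, a dendritic cell chemokine, had 20 against 13 fragments and Ccl17, its partner on Ccr4, 2 against 5. Ccr4, Ccr6 and Ccr8 had 6, 8 and 1 fragments over all 6 libraries, Cxcr1 had 2, Ccr9 18 and Cxcr5 27, and the groups overlapped in each of these 6 genes. The 95% intervals of the rate ratio of Ccr9 (0.567 to 4.87) and Cxcr5 (0.646 to 3.53) included 1.

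Other genes of the pathway were taken from 3 lists of 29 genes, of which 25 were tested and 0 changed (limma), with 20 above and 5 below 0, a median log2 fold change of 0.11 and 56.9% of all genes above 0. Of the 28 with enough fragments for voom, 1 was called. Dock2, which links chemokine receptors to Rac in leukocytes, had 1.41, 1.49 and 1.30 FPKM across the knockouts against 1.04, 1.06 and 0.871 across the wild types, all knockouts above all wild types (log2 fold change 0.27, SE 0.0924, adjusted p = 0.208, limma; voom adjusted p = 0.0498). Among the chemokines outside the naming rule, the platelet chemokine Pf4 had 22.4, 19.0 and 25.4 FPKM across the knockouts against 19.6, 23.4 and 25.9 across the wild types and the neuronal and endothelial chemokine Cx3cl1 7.85, 7.19 and 7.50 FPKM across the knockouts against 6.43, 6.85 and 8.41 across the wild types. Cx3cr1, the microglia and macrophage receptor of Cx3cl1, had 7.93, 7.32 and 6.96 FPKM across the knockouts against 7.45, 6.75 and 6.81 across the wild types. Ppbp, another platelet chemokine, had 1.27, 1.64 and 0.791 FPKM across the knockouts against 0.447, 1.13 and 0.578 across the wild types. These 4 overlapped between the groups. Ackr1, an atypical receptor of venules and red cells, had 2.82, 2.35 and 2.86 FPKM across the knockouts against 1.85, 2.28 and 2.00 across the wild types and did not overlap (log2 fold change 0.27, SE 0.0921, adjusted p = 0.204, limma). The scavenging receptors Ackr2 and Ackr4 overlapped, with log2 fold changes of 0.14 and 0.11 (adjusted p = 0.587 and 0.686, limma).

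Among the signalling genes, the inhibitory G-protein subunit gene Gnai2 had 158, 154 and 137 FPKM across the knockouts against 162, 162 and 159.8 across the wild types and lay lower in all knockouts, and Gnai3 had 46.4, 47.9 and 51.9 FPKM across the knockouts against 43.5, 43.2 and 43.0 across the wild types and lay higher in all of them (adjusted p = 0.359 and 0.165, limma). The Rac activator gene Prex1 (log2 fold change 0.09) and the GTPase gene Rac2 (0.06) overlapped. Of the 11 inflammatory mediators 4 were tested and 0 changed. Nfkbia, the inhibitor induced by NF-kB, came nearest, with 23.8, 25.1 and 23.0 FPKM across the knockouts against 28.7, 29.0 and 28.9 across the wild types (log2 fold change -0.26, SE 0.0440, adjusted p = 0.0735, limma). Icam1 and Vcam1, adhesion molecules that leukocytes bind after chemokine signals, differed in sign, with log2 fold changes of -0.09 and 0.23 (adjusted p = 0.466 and 0.161, limma). Tnf, below the filter, had 0.366, 0.433 and 0.483 FPKM across the knockouts against 0.111, 0.248 and 0.267 across the wild types, higher in every knockout (voom adjusted p = 0.351). Nos2 overlapped, with 1.04, 1.17 and 1.29 FPKM across the knockouts against 1.35, 1.09 and 1.03 across the wild types. Of the 9 mediators fitted with voom, 4 were higher, 5 lower and 0 called. All 11 summed to 36.2 to 38.3 FPKM in knockout and 40.4 to 41.9 in wild type, lower in every knockout, and Nfkbia made up most of that sum.

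**Figure D4:**
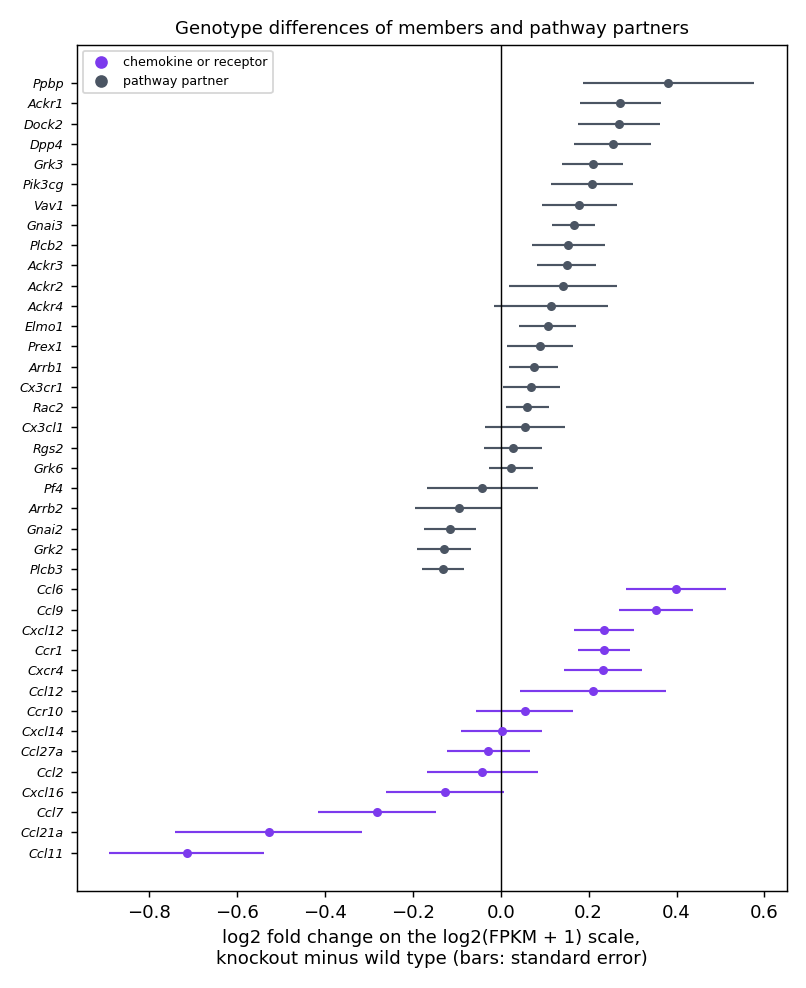
Log2 fold change on the log2(FPKM + 1) scale, knockout minus wild type, with the standard error as a bar, for the 14 tested members (purple) and the 25 tested genes of the 3 pathway lists (grey). The members run from -0.71 (Ccl11) to 0.40 (Ccl6), and none of them passed the limma threshold.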

How the data were processed

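RNA of 6 cochlea samples was sequenced from libraries made with the VAHTS Universal V6 kit, per the labels' protocols. The authors deposited 1 table of FPKM values per gene and library. The build is GRCm38 per the submitters' processing notes; the sources used here do not name the aligner, counter or strand setting. Multiplied by GENCODE M21 exon length, 98.3% of values above 0 in each library came out as whole fragments (tolerance 0.01 fragment and 1e-06 relative), giving fragments for 47 of the 49 members.

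The main test was limma 3.58.1 in R 4.3.3 on log2(FPKM + 1), for genes reaching FPKM 1 in 3 or more libraries (eBayes with a trend, two-sided, Benjamini-Hochberg adjustment over all genes tested, threshold 0.05). A fold change on this scale understates that of low genes. Lower members are given in fragments, with the rate ratio of the group sums and its exact 95% interval (Clopper-Pearson on the share of fragments; counting error only), and voom (limma) on genes with at least 10 fragments in all. Marker sums add FPKM over a list. The code was tested on simulated data.

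The members and lists were chosen with earlier results of these data known. Named were Neu4, every tested member, every other member with 0.2 FPKM in a library, and up to 4 genes of each other list; Cxcl13, other members under 0.2 FPKM and list genes such as Dock2, Tnf, Mertk and Mrc1 were picked with their values in view. The values of 1 member are not reported here. The fits were repeated with changed pseudocounts, filters, scaling and eBayes settings, library weights, sex, a replicate block, voom, protein-coding genes only and leaving out each library. Python 3.11.15, numpy 2.4.6, scipy 1.17.1, pandas 2.3.3 and matplotlib 3.10.9 were used.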

Additional observations from a re-analysis of the deposited data

How the results depend on the processing

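Of the 14 tested members 0 were called under every limma setting tried on FPKM (smallest adjusted p 0.0776, Ccl9 with genes of FPKM 5 or more), and 1 (Cxcl15) of the 38 fitted with voom. Leaving out each library in turn, an alternative of limma on FPKM, gave 0 throughout. With voom, leaving out each library (chosen after seeing the data) gave 0 to 2. The count over all genes was 47 and became 21 with a filter at FPKM 0.1, 19 without a filter, 103 with a filter at FPKM 5, 19 without the trend, 104 with library weights, 24 with sex as a covariate and 388 with voom. Without 1 library it was 12 to 105. Ccl6, Ccl7, Ccl9, Ccl11, Ccl12, Ccl21a, Ccr1, Cxcl12, Cxcl16 and Cxcr4 kept their sign in every alternative run, but not their size. With 1 library left out Ccl12 ran from 0.094 to 0.40, Ccl7 from -0.40 to -0.17, Ccl21a from -0.74 to -0.34, Cxcl16 from -0.23 to -0.013 and Cxcr4 from 0.15 to 0.32. With a pseudocount of 0.1 Ccl11, Ccl21a, Ccl6 and Ccl7 were -1.21, -0.97, 0.60 and -0.43, and with sex as a covariate Ccl12 and Cxcl16 were 0.075 and -0.21. Cxcl14 turned to -0.021 with median-ratio scaling, -0.018 with quantile normalization, -0.056 with sex as a covariate and -0.0014 with voom, and ran from -0.081 to 0.061 with 1 library left out. Ccl27a turned to 0.029 with library weights and ran from -0.11 to 0.033 with 1 library left out. Ccl2 turned to 0.032 with sex as a covariate and ran from -0.12 to 0.055. Ccr10 ran from -0.014 to 0.14. The cause of these turns was not tested.

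The replicate numbers 4 and 5 occur in both groups. Deviations of same-numbered libraries from their group means correlated at 0.14 and 0.15, but 2 pairs do not show pairing. The unlike-numbered knockout 2 and wild type 3 correlated at 0.11, and the other unlike-numbered pairs at -0.125 to -0.010. Knockout 2 and wild type 3 have no same-numbered partner, so the replicate block compares only the libraries numbered 4 and 5. With that block 22 genes and 0 members were called, and Ccr10 turned to -0.074, while Cxcl12, Cxcr4, Ccl6 and Ccl7 shrank to 0.15, 0.15, 0.26 and -0.13. An effect of pairing and the loss of knockout 2 and wild type 3 cannot be told apart in these values. Depth limits the 9 of 47 members under 10 fragments in all, which were left out of voom.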

Other observations

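Cxcl11, which the table gives as a polymorphic pseudogene, had 3, 2 and 1 fragments across the knockouts (2, 4, 5) against 1, 1 and 4 across the wild types (3, 4, 5), with the same sum of 6 in each group.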
